A study of Mus musculus with 19 samples.

Results

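Fibronectin and 8 further genes of secreted matrix proteins were followed in retinal microglia after laser-induced choroidal neovascularization. The genes were chosen by name, with earlier results of these data known, from 27299 genes in the deposited table: Fn1, Tgfbi, Ecm1, Emilin2, Thbs1, Vcan, Col4a1, Col4a2 and Lamc1. Bulk RNA-seq was performed on 6 control samples and 6 samples collected at day 3 (CNV d3) after 6 laser burns per eye. All mice were 8 weeks old. The labels give the strain C57BL/6J, whereas the methods name Cx3cr1 GFP/+ animals for the sort. In both groups, cells were sorted from the central retina as CD11b+ CX3CR1+ Ly6C- Ly6G- cells that were CD45+ by the labels and CD45 lo by the methods. This gate is meant to remove classical monocytes, neutrophils and macrophages with high CD45. The labels do not say whether samples came from separate or pooled animals, so that p-values measure the spread between these samples, which may be partly technical.

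The extracellular matrix is the secreted protein scaffold that surrounds cells. Fibronectin and other adhesive glycoproteins are bound by integrins at the cell surface. Type IV collagen and laminin form basement membranes such as that of the retinal pigment epithelium. In wounds, macrophages and fibroblasts lay down a provisional matrix rich in fibronectin before a collagen-rich matrix follows.

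Reads on genes ranged from 10963178 to 22335233 in control and from 23532260 to 29523018 in CNV d3, so that every control sample was shallower. Values are normalized counts, the reads divided by a size factor per sample, and 1 read was worth 0.739 to 1.99 normalized counts. Of 12 microglia markers, 8 were lower in CNV d3 at an adjusted p under 0.05 in limma, beside 4.57% of all genes. Of these, 2 were decreased DEG by the rule given below, beside 1.07% of all genes. P2ry12 fell by 1.65 and Tmem119 by 1.06 on the log2 scale (adjusted p = 1.01e-05 and 0.000136 in limma), and both kept at least 44022 and 38810.1 normalized counts in every sample. The 7 neutrophil genes in the table summed to at most 22.3. Of 14 monocyte genes, 5 were increased DEG, beside 3.91% of all genes. The 14 genes summed to 324 to 1083 in control and 940 to 4876 in CNV d3. Ly6c2 had 0 reads in all controls and 1.73 to 25.1 normalized counts in CNV d3. In bulk samples, more cells of one type cannot be told apart from more RNA per cell.

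A gene was called a differentially expressed gene (DEG) at a log2 fold change beyond 1.5 with an adjusted p under 0.05 in limma on log2(normalized count + 1). By this rule Fn1, Ecm1 and Emilin2 were increased DEG, which is 3 of 9 genes against 3.91% of all genes. Tgfbi and Thbs1 rose by less, so that 5 of 9 genes were higher at an adjusted p under 0.05, against 8.29% of all genes. In the same 5 genes every CNV d3 sample lay above every control sample, as did 4.64% of all genes. Since the 9 genes were chosen with earlier results of these data known, these counts beside the shares of all genes are descriptive only. Vcan, Col4a1, Col4a2 and Lamc1 did not pass the test, and 0 of 9 genes fell, against 1.07% of all genes called as decreased DEG and 4.57% lower at any size. For 9 genes a count of 0 is near these shares. At an unadjusted p under 0.05 in limma, and in edgeR and DESeq2 at an adjusted p under 0.05, 0 of 9 genes fell. The shares of all genes at these other settings are not given, so that these counts add nothing about the 9 genes. The median log2 fold change was 1.20 over the 9 genes and 0.15 over all genes. Leaving out any 1 sample kept 3 of 9 genes called. Without CNV d3 replicates 3 and 6, which were left out after the data were seen because their Fn1 was highest, 1 of 9 genes remained called, namely Fn1. Ecm1 then had an adjusted p of 0.0515 and Emilin2 of 0.102 in limma, with log2 fold changes of 4.72 and 4.37.

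**Figure D1:**
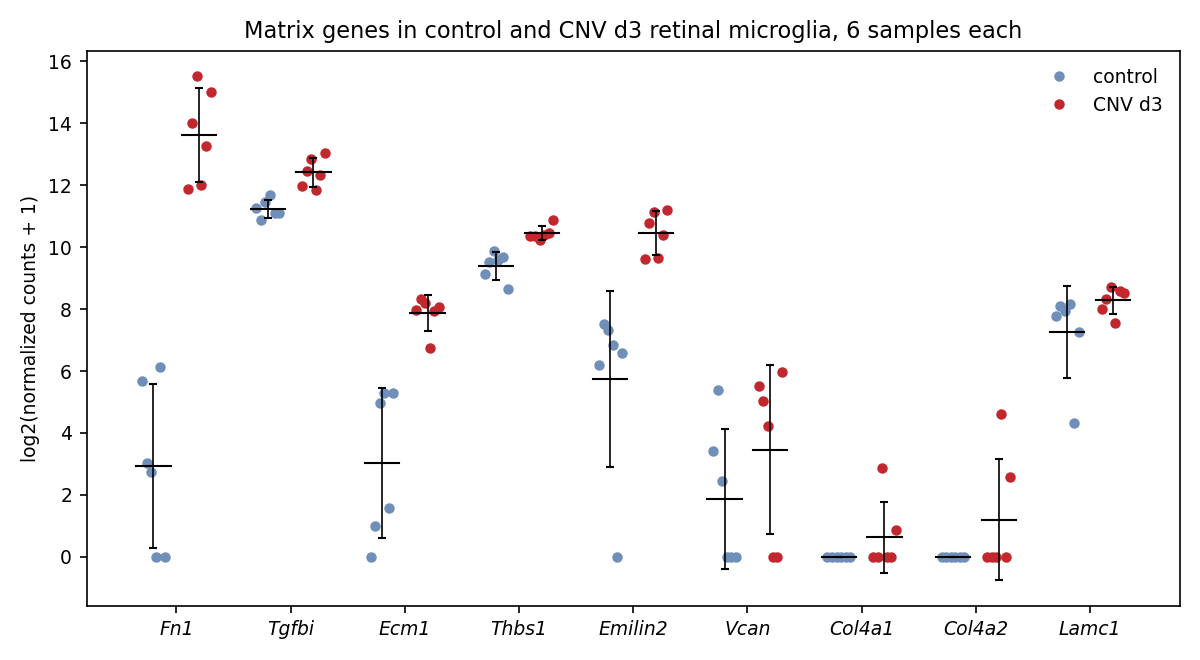
Level of each gene per sample as log2(normalized counts + 1), with the mean (bar) and SD (whiskers) of 6 control and 6 CNV d3 samples. The groups are separate for Fn1, Tgfbi, Ecm1, Thbs1 and Emilin2, and overlap for Vcan, Col4a1, Col4a2 and Lamc1.

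Fn1 encodes fibronectin, the main adhesive glycoprotein of the provisional matrix. Its gene lies on the minus strand at chr1:71585520-71653200 (GRCm38, Gencode M21). In control samples 1 to 6 it had 50.5, 7.09, 5.63, 0, 69.3 and 0 normalized counts, and in CNV d3 samples 1 to 6 it had 3763, 16586, 47390, 4164, 9895 and 33440. The groups did not overlap, and within CNV d3 the highest sample exceeded the lowest 12.6-fold. The mean went from 22.1 ± 30.0 to 19206 ± 17637 (SD, n = 6), a log2 fold change of 10.70 (SE 1.04, adjusted p = 2.03e-05 in limma). The recovered reads gave 9.67 in edgeR and 9.76 in DESeq2. A two-sided exact permutation test gave p = 0.00216, the smallest that 6 samples against 6 allow. The exons of Fn1 share 292 bases with those of Apol7d on the opposite strand, a small part of its 11685 exonic bases.

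Tgfbi encodes an adhesive protein that binds collagen and integrins and was named for its induction by TGF-beta. It lies on the plus strand at chr13:56609523-56639562. Control samples ranged from 1865 to 3300 normalized counts with a median of 2328, and CNV d3 samples from 3704 to 8423 with a median of 5392. All CNV d3 samples were higher, although the gene was already well expressed in control. Its log2 fold change of 1.18 (SE 0.20, adjusted p = 0.00114 in limma) stayed below the DEG size, and the lower bound of its 95% interval was 0.75.

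Ecm1, a secreted glycoprotein that binds several matrix proteins, lies on the minus strand at chr3:95734147-95739569. Its 6 control samples had 0, 1.01, 30.4, 38.6, 2.01 and 37.7 normalized counts, and the CNV d3 samples had 249, 324, 290, 106, 245 and 268. Even CNV d3 replicate 4, the lowest of its group, exceeded the highest control. The log2 fold change was 4.85 (SE 0.91, adjusted p = 0.00248 in limma), with 3.79 in edgeR and 3.77 in DESeq2. Leaving out control replicate 1, which was at 0, gave 4.24.

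Emilin2, a glycoprotein of elastic fibre surfaces, lies on the minus strand at chr17:71252172-71311978. The control samples had 71.9, 181, 160, 114, 0 and 95.3 normalized counts, and the CNV d3 samples had 782, 1759, 2275, 807, 1343 and 2341. The groups were separate, and replicate 5 was the single control at 0. The mean rose from 104 ± 65.0 to 1551 ± 690 (SD, n = 6), a log2 fold change of 4.72 (SE 1.00, adjusted p = 0.00558 in limma), and without control replicate 5 the log2 fold change was 3.57.

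The promoters of Ecm1 and Emilin2 are shown, since these were the increased DEG found in the RefSeq promoter table. Of the 9 genes, 6 were in that table, and Fn1, Thbs1 and Lamc1 were not. Each line gives the 250 bases before a start site, written along the gene, on the minus strand of GRCm38.p6, at chr3:95739570-95739819 for Ecm1 and chr17:71311012-71311261 for the second start site of Emilin2. Capitals mark the searched letters on either strand.
Ecm1: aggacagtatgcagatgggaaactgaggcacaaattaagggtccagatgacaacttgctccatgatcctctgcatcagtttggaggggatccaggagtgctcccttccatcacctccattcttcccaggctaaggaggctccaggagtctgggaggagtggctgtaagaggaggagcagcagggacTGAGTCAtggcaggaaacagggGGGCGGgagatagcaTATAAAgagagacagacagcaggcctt
Emilin2: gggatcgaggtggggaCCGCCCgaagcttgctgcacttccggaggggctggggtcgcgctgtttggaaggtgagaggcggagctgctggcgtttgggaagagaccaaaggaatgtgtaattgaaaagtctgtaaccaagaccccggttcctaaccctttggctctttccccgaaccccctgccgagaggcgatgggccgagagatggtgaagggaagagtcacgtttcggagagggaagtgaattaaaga
The search covered the AP-1 letters TGANTCA, the GC box GGGCGG, the TATA box TATAAA and the letters GAGGAA. The last are a longer form of the ETS core GGAA, and the core itself was not searched. The Ecm1 window held an AP-1 match at -64, a GC box at -42 and a TATA box at -27 relative to the start. Of 32851 mouse promoter windows, 6.75% held the AP-1 letters, 32.7% the GC box, 23.3% the letters GAGGAA and 12.4% the TATA box. The Emilin2 window held a GC box at -234 as its single match to the searched letters, and the window of its first start site held 0 matches to them. Sites of other letters, such as shorter ETS sites, are not covered by these counts. Vcan and Col4a2, which did not pass the test, held 2 GC boxes each. Matches describe these letters and were not tested for binding.

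Thbs1 encodes thrombospondin-1, a matricellular protein that inhibits angiogenesis and binds CD36 and CD47. It lies on the plus strand at chr2:118111876-118127133 and shares 208 exonic bases with Gm29233 on the other strand. Control samples ranged from 397 to 939 normalized counts with a median of 751, and CNV d3 samples from 1195 to 1863 with a median of 1340. The groups were separate, and the CNV d3 samples lay closer together (coefficient of variation 16.4%) than those of Fn1 (91.8%). The log2 fold change was 1.05 (SE 0.19, adjusted p = 0.00204 in limma), below the DEG size.

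Vcan encodes versican, a large hyaluronan-binding proteoglycan, at chr13:89655312-89742509 on the minus strand. It had 0 reads in 3 control and 2 CNV d3 samples, with up to 40.5 and 62.3 normalized counts in the others. The groups overlapped, and the log2 fold change of 1.59 had a 95% interval from -1.25 to 4.42 (adjusted p = 0.522 in limma). At this level a change of either direction was not resolved.

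Col4a1 and Col4a2 encode both chains of the common type IV collagen of basement membranes and lie head to head on chromosome 8, at chr8:11198423-11312826 and chr8:11312805-11449287. Neither had a read in any control sample, out of 115732157 reads on genes. In CNV d3, Col4a1 had 8 reads, all in replicates 3 and 6, and Col4a2 had 33 reads, all in replicates 4 and 6. The other CNV d3 samples were at 0, and the adjusted p was 0.405 for Col4a1 and 0.320 for Col4a2 in limma. A count of 0 allows up to 3 reads, or 5.96 normalized counts in the shallowest control, and this limit covers counting error only. The summed level of 9 endothelial genes, whose cells make type IV collagen, was 500.3 to 989.8 normalized counts in control and 470.6 to 1001 in CNV d3. Within that list Pecam1 fell by 1.46 on the log2 scale and Kdr rose by 0.98 (adjusted p = 0.0236 and 0.0452 in limma). Their means were 392 and 315 normalized counts in control and 138 and 595 in CNV d3. Every other gene of the list had a mean of at most 38.5 in either group. The sum thus rests mainly on Pecam1 and Kdr, which moved in opposite directions, and does not show a steady endothelial content.

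Lamc1 encodes the laminin gamma 1 chain, shared by most laminins, at chr1:153218922-153332786 on the minus strand. The control samples had 218, 273, 247, 288, 19.1 and 151 normalized counts, and the CNV d3 samples had 256, 321, 415, 188, 387 and 368. The groups overlapped and control replicate 5 lay far below the rest. The log2 fold change of 1.02 (SE 0.54, adjusted p = 0.265 in limma) was 0.44 without that sample. The two-sided exact permutation test gave p = 0.0563.

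**Figure D2:**
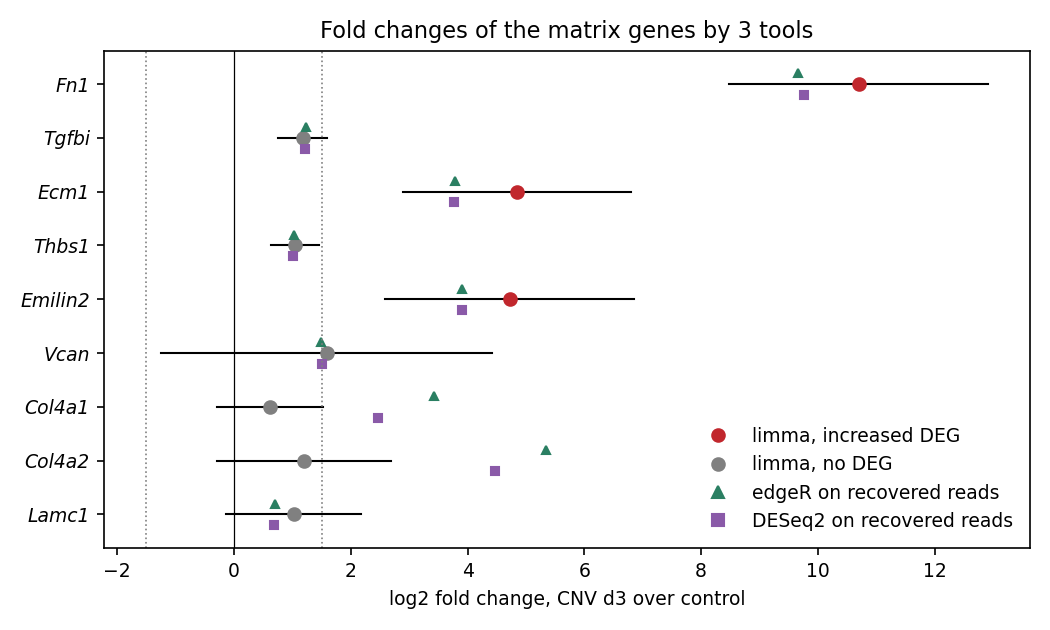
Log2 fold change of each gene, CNV d3 over control, from limma (circles, lines show the 95% interval), edgeR (triangles) and DESeq2 (squares), with dotted lines at the DEG size of 1.5. The intervals of Fn1, Tgfbi, Ecm1, Thbs1 and Emilin2 lie above 0, and the tools differ most for Col4a1 and Col4a2, which had few reads.

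Levels were compared between genes as normalized counts per kilobase of exon. In control, Tgfbi was highest at 655 ± 137 (SD, n = 6) per kilobase, followed by Thbs1 at 116 ± 32.0 and Lamc1 at 24.1 ± 12.2. In CNV d3, Fn1 reached 1644 ± 1509 and Tgfbi 1519 ± 497 per kilobase. Fn1 exceeded Tgfbi in 2 of 6 samples, so that their order did not hold beyond the spread. Emilin2 and Thbs1 followed at 282 ± 125 and 233 ± 38.3 per kilobase and were likewise not ordered, since Emilin2 was higher in 4 of 6 samples. Tgfbi exceeded Emilin2, Thbs1 exceeded Ecm1, Ecm1 exceeded Lamc1 and Lamc1 exceeded Vcan in 6 of 6 CNV d3 samples. Each of these comparisons had a two-sided exact paired permutation p of 0.0312, the smallest for 6 pairs, and an adjusted p of 0.0670 over 15 neighbour comparisons. The genes were first ordered by their means in these same samples. The pairs and their directions thus came from the tested values, and the p-values are descriptive only.

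Over 120 genes of secreted matrix proteins, the 9 genes held 2.48% to 3.59% of the normalized counts per kilobase in control and 4.38% to 16.5% in CNV d3. Fn1 held at most 0.0222% in control and from 0.751% to 9.83% in CNV d3. Sparc, a matricellular protein made by microglia, held 83.9% ± 0.76 in control and 57.5% ± 8.52 in CNV d3 (SD, n = 6), and Spp1, the integrin ligand osteopontin, held 0.335% ± 0.267 and 21.8% ± 9.88. These shares sum to a fixed total, and the normalized count of Sparc itself had a log2 fold change of -0.0021 (adjusted p = 0.986 in limma).

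**Figure D3:**
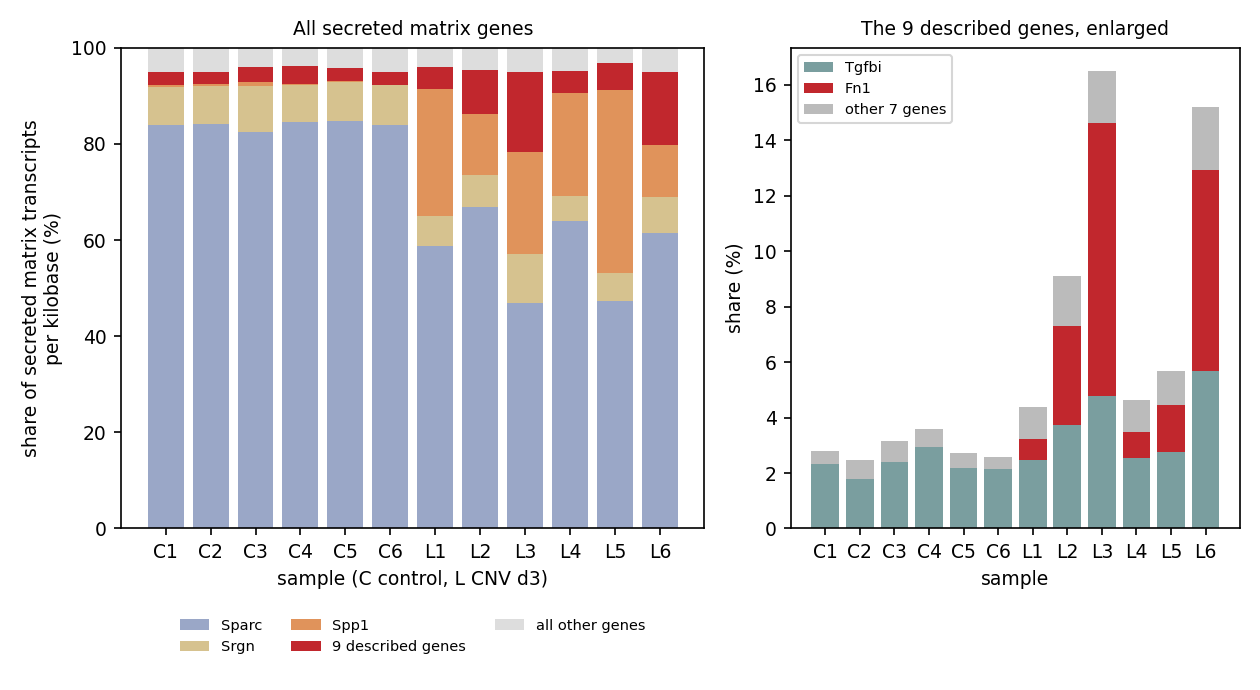
Share of the normalized counts per kilobase of 120 secreted matrix genes in each control (C) and CNV d3 (L) sample, in percent, for all genes (left) and the 9 described genes enlarged (right). The 9 genes together hold 2.48% to 3.59% in control and 4.38% to 16.5% in CNV d3, where Fn1 holds 9.83% in replicate 3 and 7.26% in replicate 6.

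Across matrix lists of 182 measured genes, 16 were increased DEG and 1 was decreased, and without the 9 genes these were 13 and 1 of 173, beside 3.91% increased and 1.07% decreased DEG over all genes. The count of 16 was 6 without CNV d3 replicates 3 and 6. The lists were also chosen with earlier results of these data known, so that their counts are descriptive only. Among 57 matrix glycoproteins 10 were increased DEG, with Fn1, Spp1 and Emilin2 at the highest CNV d3 levels, and Vwa1 was decreased. Spp1 went from 162 ± 137 to 15559.6 ± 8802 normalized counts (SD, n = 6), a log2 fold change of 6.85 (adjusted p = 4.25e-06 in limma). Of 17 proteoglycan and hyaluronan genes only Spock1 was an increased DEG. Among 21 basement membrane genes and 27 other collagens 0 were DEG in limma, edgeR or DESeq2. In lists of this size this is near the 3.91% increased DEG of all genes in limma. In each of these lists only 6 genes had a mean of at least 10 normalized counts, so that few reads limited the calls of the others. At an unadjusted p under 0.05 in limma, 4 of the basement membrane genes passed, with 0 lower, and 3 of the collagens, with 2 lower. The share of all genes at this unadjusted p is not given, so that these counts have no background beside them. At the adjusted threshold 1 collagen, Col27a1, was lower (adjusted p = 0.0242 in limma), named after its values were seen. Nid2, a basement membrane linker protein that was also picked after its values were seen, had a log2 fold change of 0.54 (adjusted p = 0.139). Of 28 matrix assembly and crosslinking genes, P4ha2, a collagen prolyl hydroxylase subunit, was the single increased DEG.

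Matrix receptors included 4 increased DEG of 32, beside 3.91% of all genes. At any size 11 were higher and 4 lower, beside 8.29% and 4.57%. Cd36, a receptor of thrombospondin-1, rose from 82.0 ± 35.6 to 2651 ± 956 normalized counts (SD, n = 6). Itga5 and Itgb1, which form the main fibronectin receptor, had log2 fold changes of 1.26 and 0.46 (adjusted p = 0.00489 and 0.000745 in limma). Itgav and Itgb3, whose pair also binds fibronectin, fell by 0.43 and 0.60 on the log2 scale (adjusted p = 0.0450 and 0.0136 in limma). The 4 integrin genes were named after their values were seen. Hmmr, a hyaluronan receptor that also serves in mitosis, and Ddr1, a collagen receptor, were further increased DEG.

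**Figure D4:**
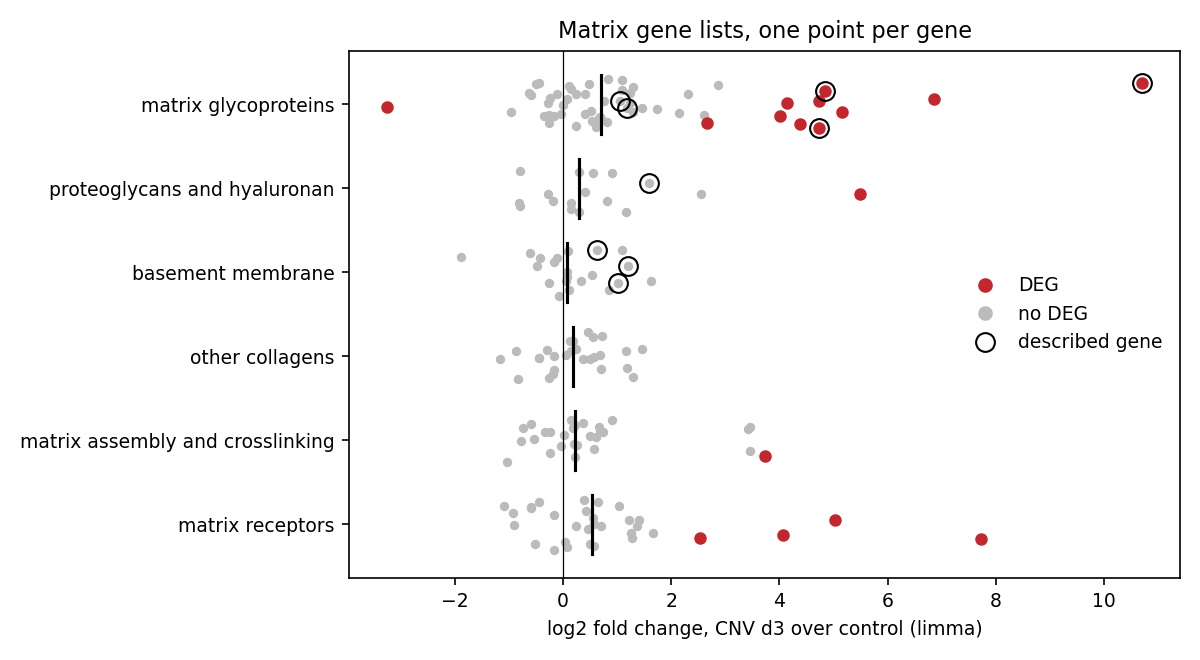
Log2 fold change, CNV d3 over control in limma, of every measured gene in 6 matrix lists, with DEG in red, the median as a bar and the 9 genes circled. Of the 9 genes, 3 lie among the increased DEG, all matrix glycoproteins. The basement membrane list holds 0 DEG of 21 genes, which in a list of this size is near the 3.91% increased DEG of all genes. Only 6 of these 21 genes had a mean of at least 10 normalized counts.

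The CNV d3 samples did not rank alike for all genes. Fn1, Tgfbi and Emilin2 were each highest in replicates 3 and 6, then in 2 and 5, and lowest in 1 and 4. Thbs1 was lowest in replicate 3 and highest in 6. The mean log2 level of 14 monocyte genes was compared with each gene over the 6 CNV d3 samples, for 7 genes, since Col4a1 and Col4a2 had reads in 2 samples each. Lamc1 had r = 0.973 (two-sided exact permutation p = 0.00278, adjusted p = 0.0194 over 7 relations) and a Spearman coefficient of 0.943 (adjusted permutation p = 0.0778), with r = 0.962 after leaving out the 2 samples farthest from the median. Fn1 had r = 0.878 and a Spearman coefficient of 0.886 (adjusted exact permutation p = 0.0753 and 0.0778), and r was 0.455 without those 2 samples. Tgfbi and Emilin2 had r = 0.882 and 0.899 (adjusted exact permutation p = 0.0753 each), and 0.511 and 0.298 without the same 2 samples. At this list level the relation of all 3 genes rests on them. Ecm1 had r = 0.697 (adjusted exact permutation p = 0.103), which turned to -0.661 without the same 2 samples. Thbs1 and Vcan had r = 0.230 and 0.210 (adjusted exact permutation p = 0.718 each). With the summed monocyte counts in place of the mean log2 level, r was 0.954 for Fn1, 0.938 for Tgfbi and 0.954 for Emilin2 (adjusted exact permutation p = 0.0292, 0.0389 and 0.0292), and 0.827, 0.818 and 0.713 without the 2 samples farthest from the median. The adjusted permutation p of the Spearman coefficient, 0.0778, 0.102 and 0.0778, did not pass the threshold. With summed counts Lamc1 had r = 0.911 (adjusted exact permutation p = 0.0292), below Fn1 and Emilin2, and 0.813 without those 2 samples. Ecm1 had r = 0.604 (adjusted exact permutation p = 0.276), and -0.264 without them. Of 10 border macrophage genes, 3 were increased DEG (Siglec1, Cbr2 and Folr2), beside 3.91% of all genes. With Stab1, 4 were higher at any size, beside 8.29% of all genes. Mrc1 and Lyve1 had log2 fold changes of -1.44 and -0.90 (adjusted p = 0.233 and 0.671 in limma). The 10 border macrophage genes summed to 2723 to 4794 in control and 4563 to 6998 in CNV d3, where Stab1 and Siglec1 had the highest means (3059 and 1812). The part of monocyte or border macrophage RNA in the increase of these genes was not tested.

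**Figure D5:**
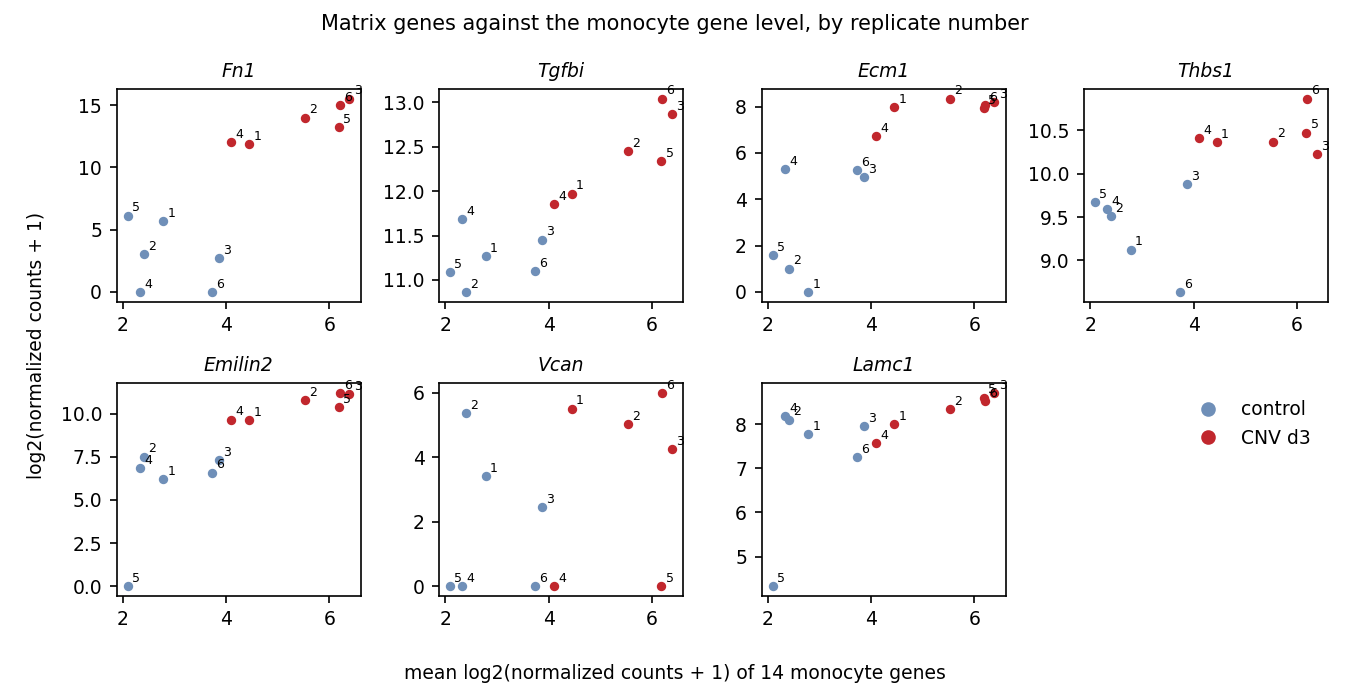
Level of 7 genes against the mean level of 14 monocyte genes, both as log2(normalized counts + 1), in 6 control and 6 CNV d3 samples labelled by replicate number. Within CNV d3 at this list level, Lamc1 (r = 0.973) lies closest to a line, and Thbs1 (r = 0.230) and Vcan (r = 0.210) have the lowest r.

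Genes of most similar profile were those with the smallest root mean square difference of centred log2 levels over all 12 samples, among 13614 genes with a mean of at least 10. For Fn1 these were Ttk, Gtse1 and Cenpn, at 2.20 to 2.26 log2 units. Tgfbi was nearest to Anapc5, Txn1 and Gsn at 0.18 to 0.21, and Thbs1 to H2-Q7, Kpna2 and Chd1l at 0.20 to 0.24. Ecm1 was nearest to S100a6, Cfp and Clu at 1.10 to 1.23, and Emilin2 to Cks1b, Ube2c and Nusap1 at 0.50 to 0.66. Lamc1 was nearest to Nipsnap1, Gm11539 and Sntb2 at 0.36 to 0.47, and Vcan to Plekha7, Ppm1j and Zbtb16 at 1.49 to 1.62. The nearest genes of Col4a1 were Ccr1, Cst7 and H2-DMb2, at 0.49 to 0.51, but its profile rests on 8 reads in CNV d3 and 0 in control. The root mean square spread of a gene's own profile was 5.70 log2 units for Fn1, 0.69 for Tgfbi and 0.81 for Col4a1. The distances are therefore not comparable between genes.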

How the data were processed

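Sorted retinal microglia were sequenced as single reads from amplified full-length cDNA, and the labels list 19 entries for 12 samples. All 6 control samples were listed in 2 parts (12 entries), but only replicate 4 of the 6 CNV d3 samples (7 entries). Any effect of this difference cannot be told apart from that of the laser. Per the labels and methods, the authors aligned reads with STAR 2.7.2b to GRCm38, counted them with featureCounts 1.6.4 at default settings (unstranded, reads in overlapping exons left out) and divided them by DESeq2 1.22.2 size factors. The deposited signal values are these normalized counts, and all were whole multiples of 1 read within 0.01, so that reads were recovered. Author columns of group means, fold changes and adjusted p-values were not used. limma 3.58.1 with a variance trend was fitted to log2(normalized count + 1) over all 27299 genes with Benjamini-Hochberg adjustment, without a replicate block. edgeR 4.0.16 and DESeq2 1.42.0 on recovered reads, other pseudocounts, filters and left-out samples were alternatives. Each fit was tested on simulated data. Positions and exon lengths came from Gencode M21, promoters from RefSeq. Members and lists were chosen with earlier results of these data known. Named genes were the 9 members, their 3 nearest profiles and the 3 called genes of highest level per matrix list, except that the nearest profiles of Col4a2 are not reported here. PCR reads without molecular identifiers are not independent, so that limits cover counting error only.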

Additional observations from a re-analysis of the deposited data

Results flagged for a closer look

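Within groups of 6 samples, 4 values stood apart from the other samples of their group by Dixon's criterion on log2(normalized counts + 1). This was among 16 groups examined, and chance gives about 1 in 20. The log2 scale widens gaps between low values, so that the normalized counts below can look less far apart. Ecm1 was low in CNV d3 replicate 4, at 106 normalized counts against 245 to 324 in the others. Emilin2 was at 0 in control replicate 5, against 71.9 to 181. Lamc1 was at 19.1 in the same control sample, against 151 to 288. Col4a1 reached 6.26 in CNV d3 replicate 3, against 0 to 0.831, which is a handful of reads. The cause was not tested.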

How the results depend on the processing

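The alternative that moved the count of members called left out CNV d3 replicates 3 and 6 and was chosen after seeing the data, on their Fn1 level. It gave 1 member called as increased DEG, 553 increased and 176 decreased DEG over all genes (1068 and 293 with all samples) and 6 matrix list genes. Ecm1 (4.72) and Emilin2 (4.37) kept their direction and lost their call, and fewer samples were tested. DESeq2 called 572 decreased DEG. With summed monocyte counts r became 0.954 for Fn1, 0.938 for Tgfbi and 0.954 for Emilin2. The 9 planned settings other than leaving out 1 sample called 3 members each, as did each of 12 fits without 1 sample, in which Fn1 ranged from 10.11 to 11.34, Ecm1 from 4.24 to 5.30 and Emilin2 from 3.57 to 5.08. Increased DEG ranged from 734 to 1138 under those settings. The exact permutation p of Lamc1 ranged from 0.0260 to 0.154 without 1 sample. Same-numbered samples did not deviate together (r from -0.0115 to 0.0456), and the replicate block gave 10.70 for Fn1, 921 increased and 215 decreased DEG and changed no call of the 9 genes. DESeq2 moved the median of all genes by -0.158. Few reads and scatter between samples limit what can be said of Vcan, Col4a1 and Col4a2, and thinning to the shallowest sample changed no call of the 9 genes.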
